A study of Mus musculus with 9 samples.

Results

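Proteasome subunits and the factors that build or open the proteasome were followed in MLP29 cells, a line of mouse liver progenitor cells, after α5β1 integrin was blocked or HGF/SF1 was added. The genes were chosen by symbol, as every gene named Psma to Psmg with a number or Pomp, and this gave 49 of the 12393 genes measured by name. Of these, 47 encode parts, chaperones or regulators of the proteasome, and Psmc3ip and Psme3ip1 match by symbol alone. The 47 comprise 14 subunits of the 20S core, 3 inducible subunits of the immunoproteasome, the testis subunit Psma8, 17 subunits of the 19S cap, 3 chaperones of the cap, 5 assembly factors of the core and 4 activators and inhibitors. Psmb11, Psme2 and Psme2b were not measured by name alone.

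RNA was measured on Affymetrix Mouse430A_2 arrays in 3 experiments, each with 1 array per condition. Cells were starved in 0.1% serum for at least 16 h and then kept for 24 h with 10 µg/ml of the function-blocking antibody BMB5 against α5β1 integrin, a fibronectin receptor, with 20 ng/ml of HGF/SF1, the ligand of the receptor Met, or untreated. All 9 arrays came from 1 line, and their controls are described as untreated. The methods also mention an IgG control antibody, but none of the 9 arrays is labelled with it, so on these arrays the blockade cannot be told apart from the presence of antibody. Values are log2 signals per probe set, and a gene takes its brightest probe set, so levels were compared between conditions and not between genes. A gene is called higher or lower when limma gave an unadjusted p under 0.05, and adjusted p-values are Benjamini-Hochberg over 22626 probe sets. The number of arrays, 3 per condition, limits the precision of every value.

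The proteasome degrades proteins that carry ubiquitin. Its 20S core is a stack of rings of alpha and beta subunits, with the 3 proteolytic sites inside on the beta subunits Psmb5, Psmb6 and Psmb7. The 19S cap binds ubiquitin, removes it and threads the substrate into the core with a ring of 6 ATPases, and dedicated chaperones assemble core and cap. In cells exposed to interferon, Psmb8, Psmb9 and Psmb10 replace the standard catalytic subunits and form the immunoproteasome, which favours peptides for class I presentation.

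Array medians lay between 5.91 and 6.08, and 46 of the 49 genes were brighter than the median probe set (6.02), all but Psmb8, Psmb9 and Psma8. Of 8 measured progenitor and biliary markers, Cdh1, Krt8, Krt18, Krt19 and Met were brighter than that median and 0 were called after the antibody, while of 7 hepatocyte markers Apob alone was. The mean signal of 7 leukocyte markers was 5.66 to 5.80 on antibody arrays, 5.46 to 5.53 on HGF/SF1 arrays and 5.35 to 5.42 on untreated arrays. Of that list, Cd68, a lysosomal protein, was called higher, at 6.04-fold. Cd14, also brighter than the median, had -0.54 (SE 0.39), with differences of 0.39, -0.85 and -1.16, and the defining marker Ptprc stayed between 3.02 and 3.38 on all 9 arrays. The part of these markers in the values below was not tested. In these bulk samples, fewer cells of a type and less RNA per cell cannot be told apart. As a measure of RNA quality, the 3′ minus 5′ log2 signal of the beta-actin control was read. It was 0.23, 0.37 and 0.24 on antibody arrays, 0.30, 0.75 and 0.61 on HGF/SF1 arrays and 0.23, 0.87 and 0.20 on untreated arrays. That of the Gapdh control lay between -0.32 and -0.06 on all 9 arrays. The part of RNA quality in the values below was not tested.

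After α5β1 blockade, 8 of the 49 genes were called lower and 1 higher than in untreated cells, which is 9 called, where 12.6% of all genes were called, 7.92% lower and 4.68% higher. The genes called lower were Psma7 and Psmb5 of the core, Psmc3, Psmc5 and Psmd6 of the cap, the core assembly factors Psmg3 and Pomp, and Psme3ip1, and the gene called higher was the cap chaperone Psmd10. None of the 49 passed an adjusted p under 0.05 in limma, as 0.0403% of all genes did, and the smallest adjusted p was 0.122, for Psmd10. Of the 47 proteasome genes, 14.9% were called lower, against 13.0% of the other genes above median brightness, and 2.13% higher, against 6.87%. In this fit, which leaves out the experiment, the share of lower calls thus lay near that of the other bright genes. Shares moved with the setting. With the experiment as a fixed block, 13 of the 49 were called lower and 2 higher (30.6% in all), where 18.5% of all genes were called. With the mean of all probe sets of a gene they were 12 and 1 (26.5%), against 12.4%. Without experiment 2, 4.08% were called, against 3.89%. The signs leaned further to one side, with 36 of 47 below untreated (76.6%), against 50.3% of all genes and 53.5% of the other bright genes. In 3 of 3 experiments 23 (48.9%) were lower, against 20.9% of all genes and 26.6% of the other bright genes. In all 3, 5 were higher, against 18.4% and 21.3%. The changes were small. The median log2 fold change of the 47 was -0.09, that of all genes -0.00, and the medians in the 3 experiments were -0.03, -0.16 and -0.26. With arrays centred on their medians the members' median stayed negative (-0.04), while that of all genes moved to 0.05. Centring also took the members below untreated from 37 to 31 of 49. The members' median was negative in all 20 alternative settings. Several of these cannot move a fold change of this comparison. They are the experiment as a block, the intensity trend, the compared conditions only and leaving out an HGF/SF1 array.

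**Figure D1:**
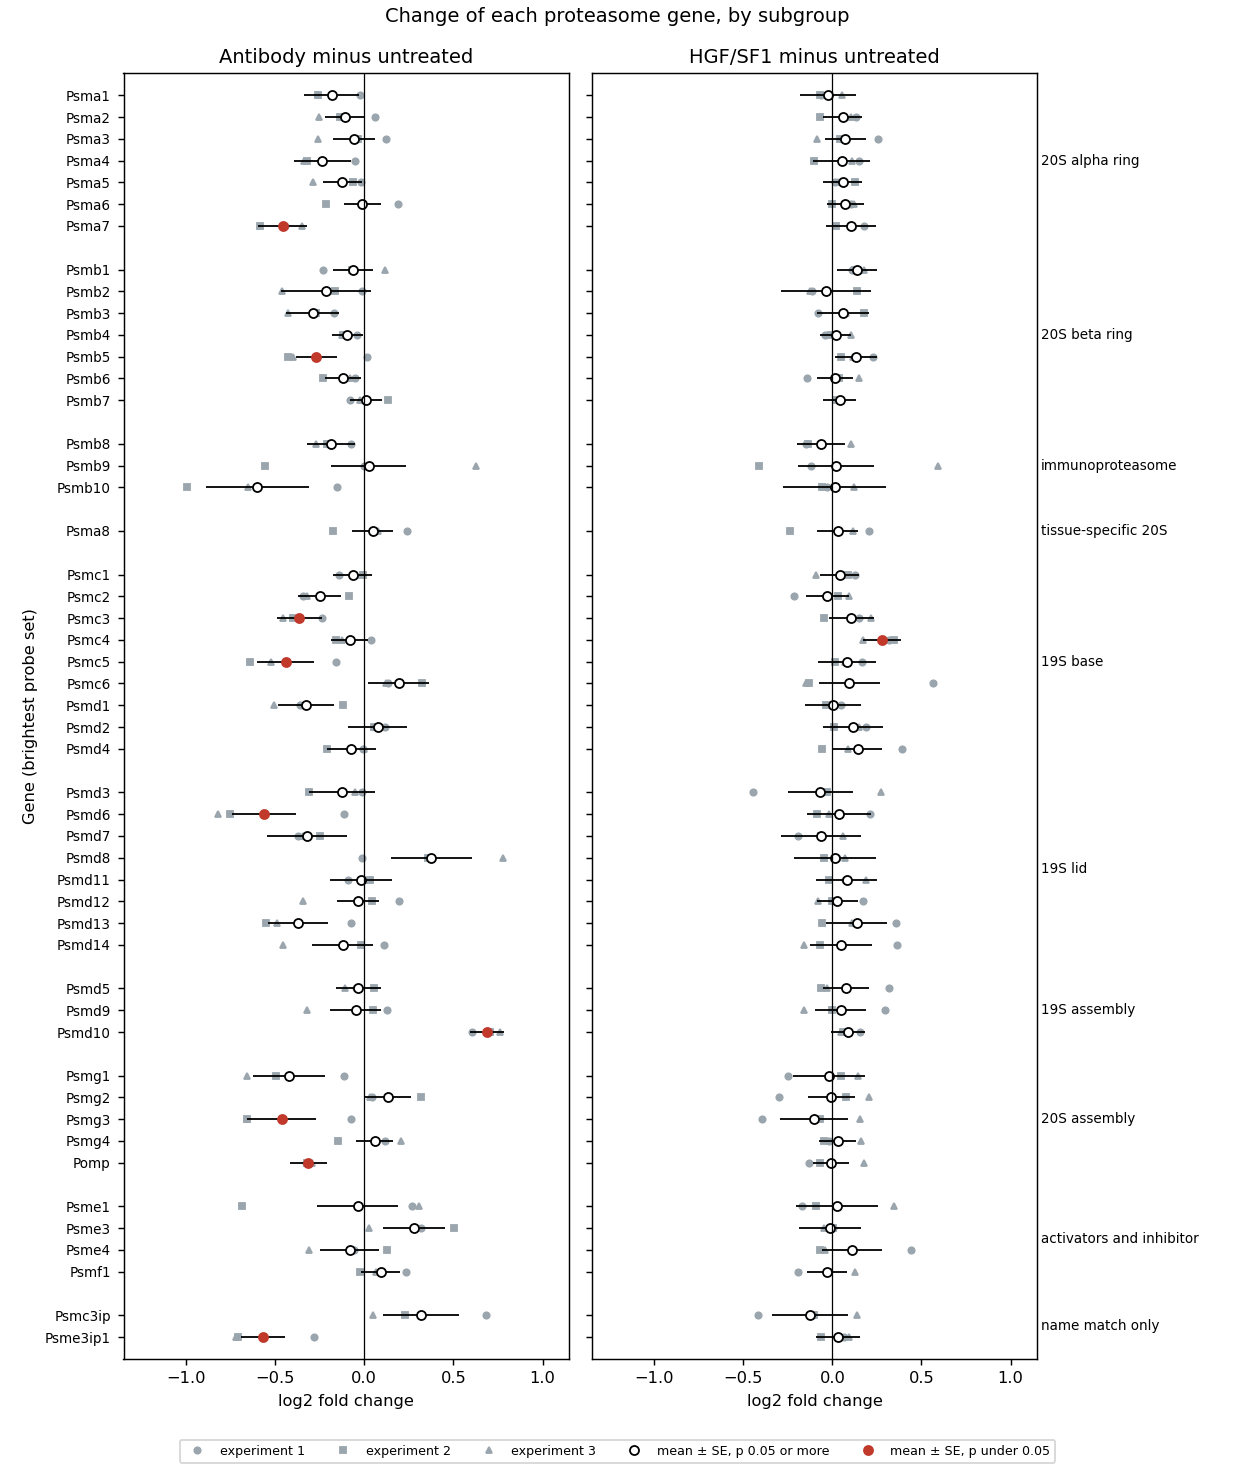
Log2 fold change of each of the 49 genes by its brightest probe set, antibody minus untreated (left) and HGF/SF1 minus untreated (right). Grey symbols are the 3 experiments and circles the mean of 3 with its standard error, filled where the unadjusted p was under 0.05. On the left most genes of the core and cap sit left of 0 and Psmd10 alone is called to the right, at 0.69, and on the right the values cluster around 0 with Psmc4 called at 0.28.

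All 7 alpha subunits of the core, which form the gated outer ring, had negative changes after the antibody, with a median of -0.12, and Psma7 alone was called. Psma7 had log2 signals of 9.97, 9.94 and 9.79 on antibody arrays, 10.59, 10.55 and 10.25 on HGF/SF1 arrays and 10.41, 10.53 and 10.14 on untreated arrays. Every antibody array lay below every other array, and the change against untreated was -0.46 (SE 0.14, 0.73-fold, adjusted p = 0.257 in limma). Its second probe set had -0.41 (SE 0.19). The other 6 lay between -0.24 for Psma4 and -0.01 for Psma6. Leaving out any 1 array kept the call of Psma7, and leaving out all of experiment 1 or of experiment 2 lost it, at -0.47 and -0.40.

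The 7 beta subunits had a median of -0.12, and of the 3 that carry the active sites, 1 was called. Psmb5, the chymotrypsin-like subunit, had 10.88, 10.63 and 10.76 on antibody arrays, 11.09, 11.11 and 11.27 on HGF/SF1 arrays and 10.87, 11.06 and 11.15 on untreated arrays. The antibody and untreated groups overlapped in experiment 1, where the difference was 0.02, against -0.43 and -0.40 in experiments 2 and 3, and the fitted change was -0.27 (SE 0.12, 0.83-fold, unadjusted p = 0.0468 in limma). This call was lost without any 1 of 7 arrays, antibody 2 or 3, HGF/SF1 1, 2 or 3, or untreated 2 or 3, with changes of -0.27 to -0.21. Psmb6, the caspase-like subunit, had 10.79, 10.59 and 10.71 on antibody arrays, 10.70, 10.86 and 10.94 on HGF/SF1 arrays and 10.84, 10.82 and 10.79 on untreated arrays, a change of -0.12 with a 95% interval from -0.35 to 0.11. Psmb7, the trypsin-like subunit, had 11.48, 11.68 and 11.60 on antibody arrays, 11.61, 11.57 and 11.67 on HGF/SF1 arrays and 11.56, 11.55 and 11.62 on untreated arrays. It was the only one of the 14 core genes with a positive change after the antibody, 0.01 (95% interval -0.20 to 0.22). Psmb3, a structural beta subunit, had 10.83, 10.82 and 10.44 on antibody arrays, 10.92, 11.26 and 10.95 on HGF/SF1 arrays and 11.00, 11.09 and 10.87 on untreated arrays. Its groups did not overlap, the change of -0.29 (SE 0.15) was not called, but was with the experiment as a fixed or random block (unadjusted p = 0.0340 and 0.0414 in limma), and its second probe set was called at -0.38 (SE 0.13).

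Of the inducible subunits, 0 of 3 were called in any comparison. Psmb10, which replaces Psmb7, had 7.99, 7.70 and 7.17 on antibody arrays, 8.11, 8.64 and 7.95 on HGF/SF1 arrays and 8.14, 8.69 and 7.82 on untreated arrays. It was lower in 3 of 3 experiments, by -0.15, -0.99 and -0.65, but its groups overlapped, and the change of -0.60, the largest decrease among the 49, did not reach the threshold (SE 0.29, unadjusted p = 0.0712 in limma). With the experiment as a fixed or random block it was called (unadjusted p = 0.0115 and 0.0298 in limma), as it was without antibody array 1 (-0.78) or untreated array 3 (-0.80). Psmb8, which replaces Psmb5, had 3.88, 4.02 and 3.87 on antibody arrays, 3.80, 4.09 and 4.24 on HGF/SF1 arrays and 3.95, 4.23 and 4.14 on untreated arrays, a change of -0.18 (SE 0.13). Psmb9, which replaces Psmb6, had 5.22, 5.08 and 5.32 on antibody arrays, 5.10, 5.22 and 5.28 on HGF/SF1 arrays and 5.22, 5.63 and 4.69 on untreated arrays, a change of 0.02 (SE 0.21) that took either sign depending on which untreated array was left out, 0.25 without array 2 and -0.22 without array 3. Psmb8 and Psmb9 are 2 of the 3 members below the median brightness, and the third, Psma8, stayed between 3.34 and 3.72 on all arrays, with a change of 0.05 (SE 0.12). Of 11 measured genes of class I antigen processing, 0 were called in any of the 3 comparisons.

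**Figure D2:**
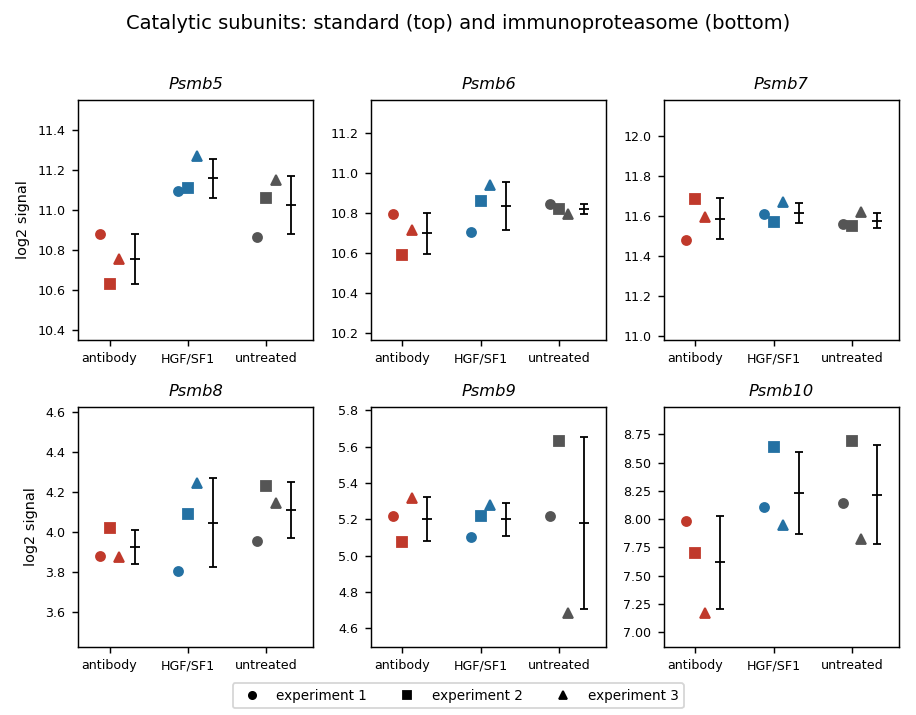
Log2 signal of the standard catalytic subunits Psmb5, Psmb6 and Psmb7 (top) and their inducible counterparts Psmb8, Psmb9 and Psmb10 (bottom) on each array, with a symbol per experiment and the mean with its SD beside it, and an axis of its own for each gene. The antibody arrays of Psmb5 lie below the HGF/SF1 arrays, and those of Psmb7 include both its lowest and its highest array. In Psmb10 the groups overlap while experiment 2 shows the widest gap, at -0.99.

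The 19S cap had a median of -0.12 after the antibody, with 14 of 17 genes below untreated, 3 called lower and 0 higher. In the base, which carries the ATPases, Psmc3 (Rpt5) had 10.36, 10.10 and 10.00 on antibody arrays, 10.75, 10.46 and 10.67 on HGF/SF1 arrays and 10.60, 10.50 and 10.46 on untreated arrays. The groups did not overlap, and the change against untreated was -0.36 (SE 0.13, 0.78-fold, adjusted p = 0.318 in limma). Psmc5 (Rpt6), another ATPase, had 10.22, 9.60 and 9.82 on antibody arrays, 10.54, 10.25 and 10.41 on HGF/SF1 arrays and 10.38, 10.24 and 10.34 on untreated arrays. The antibody array of experiment 1 lay just under the lowest untreated one and the other two well below, and the change was -0.44 (SE 0.16, 0.74-fold, adjusted p = 0.336 in limma). Psmc4 (Rpt3) showed no such gap by its brightest probe set, at -0.08 (SE 0.10), while its second probe set, with 9.90, 9.48 and 9.64 on antibody arrays and 10.19, 10.10 and 10.26 on untreated arrays, was called lower at -0.51 (SE 0.13). Without antibody array 2 or 3 or untreated array 1 the calls of Psmc3 (-0.34 to -0.29) and Psmc5 were lost, and that of Psmc5 also without untreated array 3 (-0.43 to -0.30). The remaining ATPases lay between -0.25 for Psmc2, whose second probe set was called lower, and 0.19 for Psmc6, whose other 2 probe sets were negative. The scaffold Psmd1 had -0.33 (SE 0.16) with groups that did not overlap, and was called with a fixed or random block (unadjusted p = 0.0219 and 0.0315 in limma). The scaffold Psmd2 had 0.07 (SE 0.17), and the ubiquitin receptor Psmd4 had -0.07 (SE 0.14) with a dimmer probe set called lower at -0.29.

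Of the 8 lid subunits, 1 was called. Psmd6 (Rpn7), a structural lid subunit, had 11.01, 10.42 and 10.29 on antibody arrays, 11.33, 11.09 and 11.09 on HGF/SF1 arrays and 11.12, 11.18 and 11.11 on untreated arrays. All antibody arrays lay below all others, by little in experiment 1 (-0.11 against untreated) and by more in experiments 2 and 3 (-0.75 and -0.82). Its fitted change, -0.56 (SE 0.18, 0.68-fold, adjusted p = 0.279 in limma), was lost as a call without antibody array 3 (-0.42), and its second probe set had -0.26 (SE 0.16). Psmd13 (Rpn9) had 9.60, 9.07 and 9.36 on antibody arrays, 10.03, 9.57 and 9.95 on HGF/SF1 arrays and 9.67, 9.63 and 9.85 on untreated arrays. Its groups did not overlap, at -0.37 (SE 0.17, unadjusted p = 0.0578 in limma), and it was called with the experiment as a fixed or random block (unadjusted p = 0.0174 and 0.0258 in limma) and without antibody array 1 (-0.50) or HGF/SF1 array 2 (-0.37). Psmd8 (Rpn12) had a positive difference without a call, with 10.65, 11.06 and 11.65 on antibody arrays, 10.69, 10.66 and 10.94 on HGF/SF1 arrays and 10.67, 10.70 and 10.87 on untreated arrays, at 0.38 (SE 0.23). The deubiquitinase Psmd14, which removes ubiquitin from substrates, had -0.12 (SE 0.17).

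Across the 47 proteasome genes, 10 had antibody arrays that all lay below the untreated arrays (21.3%), against 8.80% of all genes and 13.2% of the other genes above median brightness, and 1, Psmd10, had them all above, against 6.21%. Of those 10 genes, 6 belong to the cap and 2 to the core. In the plot of subgroup levels by array, the antibody array of experiment 1 was the highest of the 3 antibody arrays for the core and for the cap. The median deviation of the 14 core genes from their means was 0.01, -0.10 and -0.21 on antibody arrays, 0.09, 0.09 and 0.05 on HGF/SF1 arrays and 0.03, 0.07 and -0.02 on untreated arrays. That of the 17 cap genes was -0.05, -0.12 and -0.23 on antibody arrays, 0.22, 0.00 and 0.13 on HGF/SF1 arrays and 0.05, -0.00 and 0.09 on untreated arrays. Without antibody array 1, 15 of the 49 genes (30.6%) were called, where 18.7% of all genes were, and Psmc5, Psmd6, Psmd10 and Psme3ip1 passed the adjusted threshold in limma. Without antibody array 3 or untreated array 1, 5 were called (10.2%), against 9.41% and 9.61% of all genes.

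**Figure D3:**
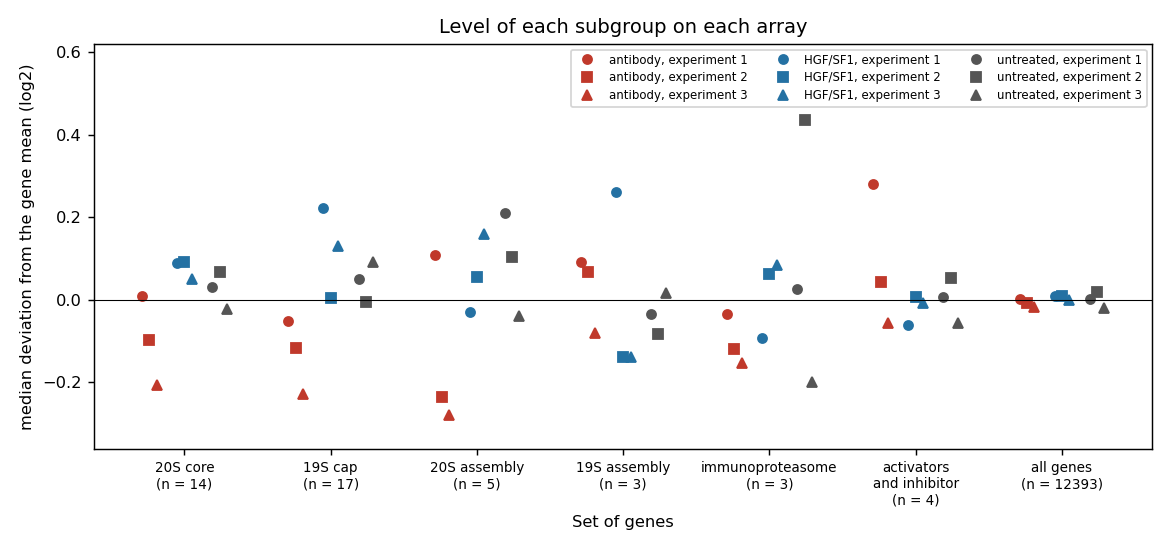
Median over the genes of each subgroup of the log2 deviation of an array from the gene's mean over 9 arrays, with a colour per condition and a symbol per experiment. For the core the antibody arrays lie at 0.01, -0.10 and -0.21, and for all genes every array lies close to 0.

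Among the chaperones that assemble the cap, 1 of 3, Psmd10, was called, and it was higher. Psmd10, or gankyrin, binds the ATPase Psmc4 during assembly of the base and is known as an oncoprotein in human liver cancer. Its log2 signal was 9.20, 9.35 and 9.28 on antibody arrays, 8.75, 8.71 and 8.57 on HGF/SF1 arrays and 8.59, 8.65 and 8.52 on untreated arrays. Every antibody array lay above every other array, by 0.60, 0.70 and 0.76 against untreated in the 3 experiments, and the change was 0.69 (SE 0.10, 1.61-fold, adjusted p = 0.122 in limma). It was called in all 20 alternative settings, with changes between 0.65 and 0.75. It passed the adjusted threshold with a random block for the experiment (adjusted p = 0.0394 in limma) but not with a fixed block (adjusted p = 0.0642 in limma). A single probe set measures it. The other cap chaperones, Psmd5 and Psmd9, had -0.03 (SE 0.13) and -0.05 (SE 0.14).

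The factors that assemble the core had the lowest median of the subgroups, -0.31, with 2 of 5 called lower. Pomp, the maturation protein that the new core degrades as its first substrate, had 10.89, 10.76 and 10.72 on antibody arrays, 11.09, 11.01 and 11.19 on HGF/SF1 arrays and 11.22, 11.08 and 11.01 on untreated arrays. The groups did not overlap and the 3 differences were alike, -0.32, -0.32 and -0.30, with a fitted change of -0.31 (SE 0.10, 0.81-fold, adjusted p = 0.283 in limma) that was no longer called without untreated array 1 (-0.26). Psmg3 (PAC3), a chaperone of the alpha ring, had 8.87, 8.26 and 8.26 on antibody arrays, 8.55, 8.85 and 9.07 on HGF/SF1 arrays and 8.95, 8.91 and 8.91 on untreated arrays. Its antibody array of experiment 1 lay close to the untreated ones, and the call at -0.46 (SE 0.19, unadjusted p = 0.0412 in limma) was lost without any 1 of 6 arrays, antibody 2 or 3, HGF/SF1 2, or untreated 1, 2 or 3, with changes of -0.47 to -0.36, and with the experiment as a fixed block (unadjusted p = 0.0597), though not as a random one (unadjusted p = 0.0353 in limma). Psmg1 (PAC1) had -0.42 (SE 0.20) without a call, was called with a fixed or random block (unadjusted p = 0.0453 and 0.0426 in limma) and without antibody array 1, and had 9.57, 9.15 and 8.74 on antibody arrays and 9.69, 9.65 and 9.39 on untreated arrays, while its partner Psmg2 (PAC2) had 0.13 (SE 0.13) and Psmg4 (PAC4) 0.06 (SE 0.10).

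**Figure D4:**
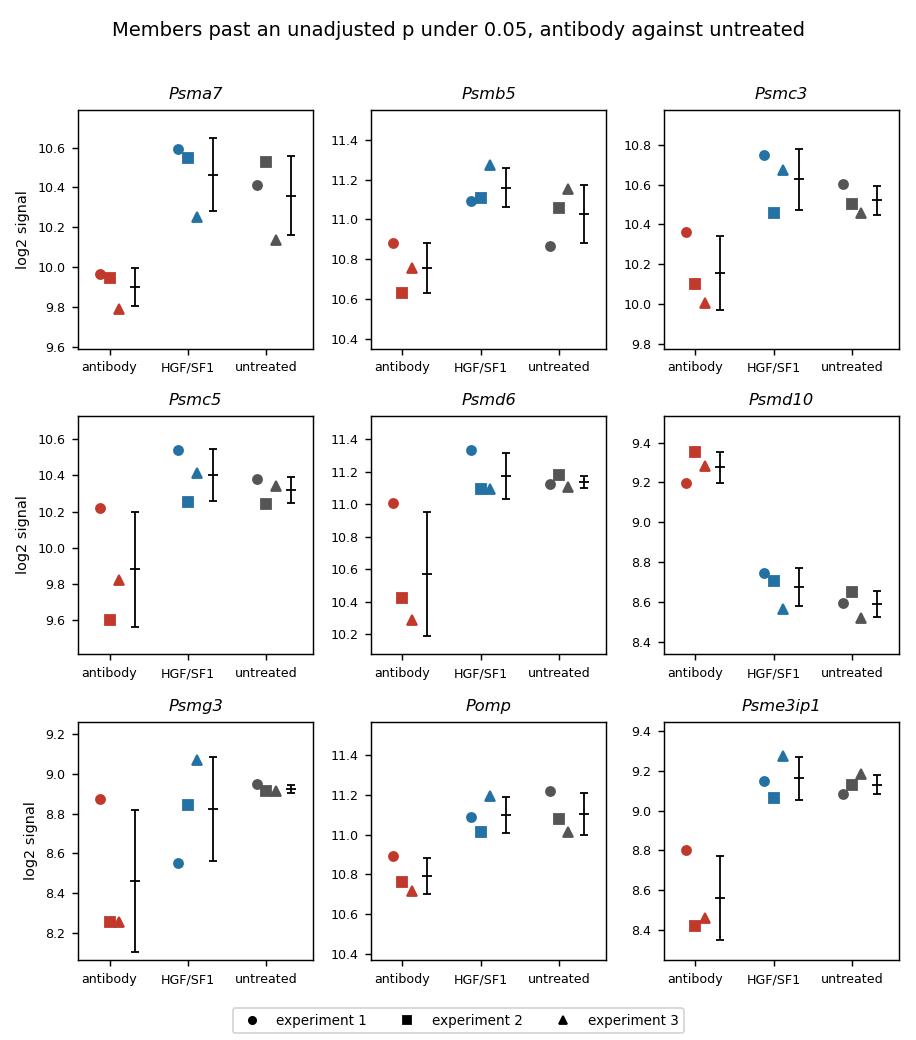
Log2 signal on each array of the 9 genes called between antibody and untreated cells, with a symbol per experiment and the mean with its SD beside it, and an axis of its own for each gene. In Psmd10 the antibody arrays lie above all others, and in Psma7, Psmc3, Psmc5, Psmd6, Pomp and Psme3ip1 below all others. In Psmc5, Psmd6 and Psmg3 the antibody array of experiment 1 lies closest to the untreated arrays.

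Promoter windows of 300 bases, 250 before and 50 after the annotated start in GRCm38.p6 (RefSeq), were found for 41 of the 49 genes. The 2 motifs searched are known at proteasome promoters and were looked for on both strands. The letters TGACNNNGC, the core of the antioxidant response element bound by Nfe2l1 and Nfe2l2, occurred in 6 of 41 windows of the proteasome genes (14.6%), against 12.4% of all 32851 windows. CCAAT, bound by NF-Y, occurred in 13 (31.7%), against 37.4%. A match in letters is no measured site. The windows of the gene called higher and of 3 of those called lower are shown, in lower case with both motifs in capitals (ATTGG is CCAAT on the other strand), each read 5′ to 3′ on the gene's strand. Psmd10 lies on the minus strand at chrX:140956662-140956961 with CCAAT starting 230, 47 and 24 bases before the start. Psma7 lies on the minus strand at chr2:180042415-180042714 with CCAAT 196 bases before it. Psmb5 lies on the minus strand at chr14:54617946-54618245 with the response element letters 47 bases before it. Psmd6, on the minus strand at chr14:14120896-14121195, holds neither. Among the genes called lower that are not shown, the windows of Pomp, Psmc5 and Psmg3 hold neither motif. A window of Psme3ip1 holds CCAAT and another holds neither, and Psmc3 had no window.
Psmd10: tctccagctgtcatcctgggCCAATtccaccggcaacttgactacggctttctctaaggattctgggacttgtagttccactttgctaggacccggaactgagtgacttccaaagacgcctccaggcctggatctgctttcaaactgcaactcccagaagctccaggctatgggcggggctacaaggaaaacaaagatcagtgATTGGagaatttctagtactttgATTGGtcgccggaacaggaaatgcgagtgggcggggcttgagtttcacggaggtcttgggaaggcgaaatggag
Psma7: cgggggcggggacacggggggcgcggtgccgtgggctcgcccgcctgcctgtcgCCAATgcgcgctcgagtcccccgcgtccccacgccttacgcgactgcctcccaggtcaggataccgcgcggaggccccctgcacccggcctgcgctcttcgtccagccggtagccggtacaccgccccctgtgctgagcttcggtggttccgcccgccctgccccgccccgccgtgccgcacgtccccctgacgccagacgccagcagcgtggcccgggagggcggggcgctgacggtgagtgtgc
Psmb5: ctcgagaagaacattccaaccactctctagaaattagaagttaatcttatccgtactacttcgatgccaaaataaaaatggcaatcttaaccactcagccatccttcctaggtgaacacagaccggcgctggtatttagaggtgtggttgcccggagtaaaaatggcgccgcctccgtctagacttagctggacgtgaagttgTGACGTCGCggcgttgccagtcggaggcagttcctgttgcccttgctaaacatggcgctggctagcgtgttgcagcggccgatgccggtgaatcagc
Psmd6: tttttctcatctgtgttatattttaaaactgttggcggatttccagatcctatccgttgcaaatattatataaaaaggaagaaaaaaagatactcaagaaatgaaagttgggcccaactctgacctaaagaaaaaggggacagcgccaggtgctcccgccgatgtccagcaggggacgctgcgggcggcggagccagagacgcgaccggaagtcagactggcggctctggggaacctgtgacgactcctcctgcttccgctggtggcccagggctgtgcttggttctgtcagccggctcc

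Of the activators and the inhibitor, 0 of 4 were called by their brightest probe sets, and their median was 0.03. Psme1 (PA28α), a subunit of the interferon-induced activator, had 10.94, 10.30 and 10.54 on antibody arrays, 10.50, 10.89 and 10.57 on HGF/SF1 arrays and 10.67, 10.99 and 10.23 on untreated arrays. Its differences went in both directions, 0.27, -0.69 and 0.31, for a change of -0.04 (95% interval -0.56 to 0.49). Psme3 (PA28γ), the nuclear activator, had 8.95, 8.75 and 8.80 on antibody arrays, 8.64, 8.25 and 8.73 on HGF/SF1 arrays and 8.64, 8.25 and 8.78 on untreated arrays. It was higher in 3 of 3 experiments, at 0.28 (SE 0.17, unadjusted p = 0.144 in limma), was called with the experiment as a fixed block (unadjusted p = 0.0459) but not as a random block (unadjusted p = 0.0770 in limma), and had negative changes in its other 2 probe sets. Psme4 (PA200), which caps the core in place of 19S, had 9.78, 10.17 and 9.61 on antibody arrays, 10.28, 9.98 and 9.88 on HGF/SF1 arrays and 9.84, 10.04 and 9.92 on untreated arrays, at -0.08 (95% interval -0.46 to 0.30).

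Psmf1 (PI31), known as an inhibitor of the core in vitro, is the gene whose probe sets disagreed most. Its brightest probe set had 8.97, 8.70 and 8.69 on antibody arrays, 8.54, 8.70 and 8.76 on HGF/SF1 arrays and 8.73, 8.72 and 8.63 on untreated arrays, at 0.09 (SE 0.11). The other 3 were all called lower. The second brightest had 6.16, 5.27 and 6.04 on antibody arrays, 6.31, 6.98 and 7.25 on HGF/SF1 arrays and 6.70, 7.16 and 7.19 on untreated arrays, without overlap between antibody and untreated, at -1.19 (SE 0.30, 0.44-fold, adjusted p = 0.212 in limma). The third had 5.93, 5.19 and 5.42 on antibody arrays, 6.13, 6.42 and 6.76 on HGF/SF1 arrays and 6.44, 6.85 and 6.63 on untreated arrays, at -1.12 (SE 0.23, adjusted p = 0.172 in limma), and the dimmest had -0.51 (SE 0.16). Of the 21 genes with more than 1 probe set, 9 had at least 1 of opposite sign to the brightest. These were Psma1, Psma5, Psmb1, Psmb4, Psmc6, Psmd7, Psmd11, Psme3 and Psmf1. Psmf1 was singled out after its values were seen.

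Of the 2 genes that match by symbol alone, 1 was called lower. Psme3ip1, which binds the activator Psme3, had 8.80, 8.42 and 8.46 on antibody arrays, 9.15, 9.06 and 9.28 on HGF/SF1 arrays and 9.08, 9.13 and 9.18 on untreated arrays. All antibody arrays lay below all others, and the change was -0.57 (SE 0.12, 0.67-fold, adjusted p = 0.180 in limma), called in all 20 alternative settings. Psmc3ip, a factor of meiotic recombination, had 0.32 (SE 0.21) without a call.

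After HGF/SF1, 1 of the 49 genes was called against untreated cells, where 0.839% of all genes were called and 0.533% higher, and 0 passed the adjusted threshold in limma. The gene was Psmc4 (Rpt3), with 10.45, 10.69 and 10.46 on HGF/SF1 arrays and 10.13, 10.35 and 10.29 on untreated arrays. All its HGF/SF1 arrays lay above its untreated arrays, as in 2.41% of all genes, no member had them all below, against 1.53%, and the change was 0.28 (SE 0.10, 1.21-fold, unadjusted p = 0.0276 in limma), while its second probe set had 0.08 (SE 0.13). Without HGF/SF1 array 2 or untreated array 1 the call was lost (0.20 and 0.22). The median of the 47 proteasome genes was 0.04, with 25.5% below untreated, against 47.7% of all genes, and the core had 0.06, the cap 0.05, the core assembly factors -0.01, the cap chaperones 0.08, the inducible subunits 0.01 and the activators 0.01. Changes ran from -0.10 for Psmg3 to 0.28 for Psmc4, against -0.60 for Psmb10 to 0.69 for Psmd10 after the antibody. Both comparisons share the untreated arrays.

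The direct comparison of the treatments called 10 of the 49 genes lower and 1 higher after the antibody than after HGF/SF1, or 11, where 14.1% of all genes were called, 8.96% lower and 5.19% higher. None passed the adjusted threshold, as 0.0242% of all genes did. Among the 47 proteasome genes, 19.1% were called lower, against 14.4% of the other genes above median brightness. Without overlap 10 were lower (21.3%), against 8.74% of all genes and 12.6% of the other bright genes. Psmd10 and Psme3 were higher without overlap, against 5.72% and 7.62%. Psmd10 was higher by 0.60 (SE 0.10, adjusted p = 0.0963 in limma) and Psma7 lower at -0.56 (SE 0.14, 0.68-fold, adjusted p = 0.168 in limma), each in 3 of 3 experiments and in all 20 alternative settings. With the experiment as a fixed block both passed the adjusted threshold in limma (adjusted p = 0.0477 for Psmd10 and 0.0492 for Psma7), and with a random block Psmd10 did (0.0389) and Psma7 did not (0.0557). Psmd6 had -0.60 (SE 0.18), Psmc5 -0.52 (SE 0.16), Psmd13 -0.51 (SE 0.17), Psmc3 -0.47 (SE 0.13), Psmb5 -0.40 (SE 0.12), Psmc4 -0.36 (SE 0.10), Psmb3 -0.35 (SE 0.15) and Pomp -0.31 (SE 0.10), and Psme3ip1 had -0.60 (SE 0.12). Leaving out 1 array lost the calls of Pomp (antibody 3 or HGF/SF1 3, -0.27 and -0.26), Psmd13 (antibody 2, HGF/SF1 1 or HGF/SF1 3, -0.46 to -0.37) and Psmb3 (antibody 3, HGF/SF1 2 or 3, or untreated 1, 2 or 3, -0.40 to -0.22). Without antibody array 1, 17 genes were called (34.7%), against 19.3% of all genes. All 14 core genes were lower after the antibody than after HGF/SF1, with a median of -0.17, and the cap had -0.21, the core assembly factors -0.31, the inducible subunits -0.12 and the activators 0.03.

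**Figure D5:**
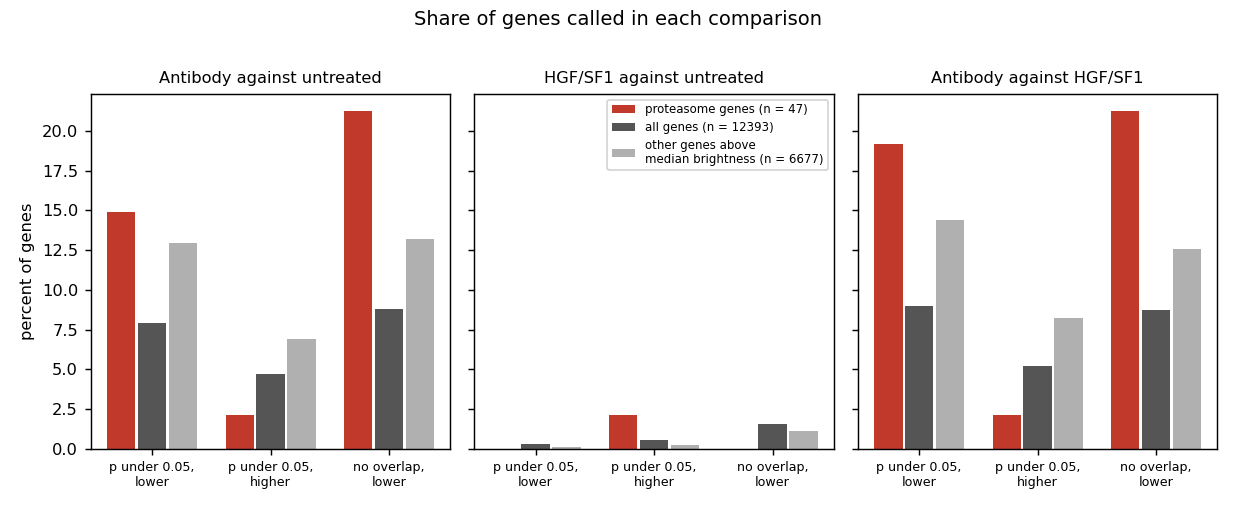
Percent of the 47 proteasome genes, of all 12393 genes and of the other genes above median brightness that were called lower, called higher, or lower without overlap between the groups, in each comparison. After the antibody, 14.9% of the proteasome genes were called lower, against 13.0% of the other bright genes, and 21.3% were lower without overlap, against 8.80% of all genes and 13.2% of the other bright genes.

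Genes that work beside the proteasome were given as counts. Of 12 measured receptors, deubiquitinases and adaptors that bind it, 2 were called higher after the antibody, where 4.68% of all genes were, and 0 lower, where 7.92% were, and 0 were called after HGF/SF1. Akirin2, which in human cells carries proteasomes into the nucleus, had 10.88, 11.59 and 11.42 on antibody arrays, 10.61, 10.60 and 10.91 on HGF/SF1 arrays and 10.84, 10.41 and 10.88 on untreated arrays, at 0.59 (SE 0.21). Ecpas, a proteasome adaptor, had 0.39 (SE 0.13). Nfe2l1 is the factor that raises proteasome genes when the proteasome is impaired, after the ATPase Vcp has pulled it from the endoplasmic reticulum. Of 8 measured genes of this pathway, 3 were called lower after the antibody, where 7.92% of all genes were, 0 higher, where 4.68% were, and 0 after HGF/SF1. Vcp had 10.98, 11.07 and 10.86 on antibody arrays, 11.59, 11.41 and 11.59 on HGF/SF1 arrays and 11.37, 11.47 and 11.66 on untreated arrays, all antibody arrays below all others, at -0.53 (SE 0.11, 0.69-fold, adjusted p = 0.178 in limma). Its cofactor Ufd1 had -0.35 (SE 0.15) and the ubiquitin ligase Syvn1 -1.03 (SE 0.35). Nfe2l1 itself had 0.20 (SE 0.31) and Nfe2l2 0.05 (SE 0.13), neither called. The ubiquitin and E1 genes were not measured by name.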

How the data were processed

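RNA of MLP29 cells was measured on 9 single-colour arrays, 3 each of antibody-treated, HGF/SF1-treated and untreated cells. For the deposited log2 values, 1 per probe set, the authors used affylmGUI on all arrays jointly and corrected the background by rma. How arrays were normalized against each other and probes summarized is not given in the sources used here. No further normalization was applied, and the raw intensities were left aside.

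Of 22690 probe sets, 64 controls were left out. The platform annotation gives a single gene to 20380 of the 22626 others, more than one to 691 and no gene to 1555. RefSeq symbols (GRCm38.p6) were found for 20351. Of 86 probe sets of the members, the brightest of each gene over all arrays was used. A mean per condition was fitted in limma 3.58.1 (R 4.3.3) with eBayes (6 residual and 2.39 prior degrees of freedom), two-sided. The fit was also run on simulated data with planted changes. Those data held no experiment effect, so that run does not cover arrays correlated within an experiment.

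Groups come from the agent given for each sample. Experiments come from the ending of the titles, which takes 3 forms, each shared by 1 array of every condition. The study describes each experiment as holding all conditions. After the condition means were taken off, the correlation within an experiment was 0.0958 to 0.591 (9 pairs) and that across experiments -0.484 to 0.0308 (18 pairs). The deviations of a condition then cancel out, so positive values within an experiment push those across experiments to be negative. These ranges are therefore not independent. P-values measure the spread between these experiments in 1 line.

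Members, gene lists and tests were chosen with earlier results of these data known. Named are members called in any comparison, the 6 catalytic subunits, Pomp, the activators, the member of each subgroup with the largest change after the antibody, and up to 4 called genes of each related list. Others are named where a subgroup is described. Alternatives were the experiment as a fixed or random block, median centring, quantile normalization, bright probe sets only, the compared conditions only, the mean of all probe sets of a gene, an intensity trend, and leaving out each array or experiment. Promoter windows were matched by symbol to RefSeq.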

Additional observations from a re-analysis of the deposited data

How the results depend on the processing

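No called member changed direction in any of the 20 alternative settings. The blocks, the intensity trend and the compared conditions only leave every fold change as it is, so they could not change a direction. Leaving out an array of the condition not compared could not either. The median change of the members stayed negative for antibody against untreated (-0.15 to -0.04) and against HGF/SF1 (-0.21 to -0.09), and positive for HGF/SF1 against untreated (0.03 to 0.07). The count of called members for antibody against untreated, 9 (18.4%, against 12.6% of all genes), was 15 with the replicate block and 15 with the random replicate block (30.6% each), where 18.5% and 17.2% of all genes were called. With the fixed block 8 of the 9 kept their call, Psmg3 did not, and 0 passed the adjusted threshold in limma, while with the random block all 9 kept it and Psmd10 passed. Both blocks added Psmb3, Psmb10, Psmd1, Psmd13 and Psmg1. The fixed block also added Psme3 and Psmd7 (-0.32), and the random block also added Psmc2 (-0.25). Against HGF/SF1, 16 were called with the fixed block and 13 with the random one, where 20.3% and 18.9% of all genes were, and 2 and 1 passed the adjusted threshold. The single member called after HGF/SF1, Psmc4, was not called with probe sets above the median only, with the compared conditions only, with the mean of all probe sets or with an intensity trend, each of which gave 0. With the mean of all probe sets, 13 members (26.5%) were called for antibody against untreated, where 12.4% of all genes were, with Psmb3, Psmc2, Psmc4 and Psmf1 added. Leaving out 1 array or 1 experiment gave 2 to 15 calls for antibody against untreated, 0 to 1 for HGF/SF1 and 5 to 17 for antibody against HGF/SF1. Against untreated the lowest counts were 2 (4.08%) without experiment 2 and 3 (6.12%) without experiment 3. These shares lay near the 3.89% and 6.80% of all genes called there. Against HGF/SF1 the lowest counts, 5 each (10.2%), came without the same experiments, where 5.79% and 8.53% of all genes were called. The highest, 15 and 17, came without antibody array 1, where 18.7% and 19.3% of all genes were called. Psmd10 and Psme3ip1 kept their calls in all 20 settings for both comparisons with the antibody, Psma7 in 18 and 20, Psmd6 and Pomp in 17 against untreated, and Psmb5 in 7. Centring arrays on their medians moved the share of higher genes among all calls from 37.1% to 49.7% for antibody against untreated and from 63.5% to 89.9% for HGF/SF1, and shifted the median of all genes to 0.05 and 0.04. It left 8 and 1 members called (16.3% and 2.04%), where 12.1% and 0.718% of all genes were. At 3 arrays per condition the standard errors of named members, 0.09 to 0.29, limit what could be called.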

Other observations

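A probe set that names both Psme2 and its near copy Psme2b was left out of the values of genes. Psme2 encodes PA28β, which forms the interferon-induced activator with Psme1. Its log2 signal was 10.59, 10.01 and 9.96 on antibody arrays, 10.07, 10.70 and 10.32 on HGF/SF1 arrays and 10.43, 10.74 and 10.07 on untreated arrays, and the groups overlapped. The change after the antibody was -0.23 (SE 0.24, unadjusted p = 0.374 in limma).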
